A study of Mus musculus with 21 samples.

Results

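Binding of the splicing factor SRSF3 to RNA on chromatin was compared with its binding in the cytoplasm of P19 cells, a mouse embryonal carcinoma line. The comparison takes 8 of the 21 samples of the series, 4 chromatin and 4 cytoplasm replicates of cells expressing an SRSF3-GFP fusion. They were chosen by protein and fraction, whatever the measured values were. The other samples are 4 nucleoplasm replicates of the same fusion and 9 samples of an SRSF7-GFP fusion, with 3 replicates in each of the 3 fractions. Every sample came from confluent cells irradiated with ultraviolet light at 254 nm and 100 mJ/cm2 and then fractionated. The sources used here give neither the promoter of the fusion nor the number of cell clones, and no sample without a tagged protein was analysed here. The design asks, by the title of the series, whether the protein stays on the same sites as RNA moves from chromatin to the cytoplasm.

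SRSF3 is the smallest of the SR proteins, which bind RNA through an RNA recognition motif and contact other splicing factors through a tail of serine and arginine repeats. SR proteins join pre-mRNA while it is still being transcribed, help the splicing machinery choose exons, and several of them, SRSF3 included, shuttle to the cytoplasm and take part in mRNA export. Chromatin therefore holds nascent, intron-containing RNA, and the cytoplasm mostly spliced mRNA, ribosomal RNA, small RNAs and mitochondrial RNA. In iCLIP, light links the protein to the RNA it touches and reverse transcription stops beside the link, so that each cDNA marks 1 bound nucleotide.

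The replicates of each fraction were pooled before deposit into 1 list of bound positions, so there is 1 value per fraction, no spread between replicates and no p-value. A value is a share of the cDNAs in a list, and its interval is an exact 95% interval for counting error only, too narrow wherever replicates differed. The chromatin list held 870234 positions with 1768665 cDNAs, and the cytoplasm list 58686 positions with 257089 cDNAs. In these 2 lists the SRSF3 cDNAs were spread more thinly in chromatin than in cytoplasm, by measures that depend on the depth of a list. A position carried 2.03 cDNAs on average in chromatin and 4.38 in cytoplasm, and the tallest position held 1343 cDNAs in chromatin and 1540 in cytoplasm, 0.0759% and 0.599% of the lists. The tallest 10% of positions held 45.1% of the chromatin cDNAs and 67.7% of the cytoplasm cDNAs. It took 211 loci to reach 50% of the chromatin cDNAs and 11 loci to reach 50% of the cytoplasm cDNAs. In SRSF7, where cytoplasm was the deeper list, a position carried 3.26 cDNAs on average in chromatin and 2.58 in cytoplasm. There 41 loci reached 50% in chromatin and 73 in cytoplasm, while the tallest position held 716 and 1223 cDNAs. How far depth made the SRSF3 difference was not tested. By strand, 52.7% of the chromatin and 64.8% of the cytoplasm cDNAs were on the plus strand. By chromosome, the X chromosome had the highest ratio, with 3.96% of the chromatin and 1.45% of the cytoplasm cDNAs, 2.73-fold higher in chromatin (2.64 to 2.82). The amount of each RNA in the fractions was not measured, so more SRSF3 per RNA and more of that RNA cannot be told apart in any share below.

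A locus here is a run of positions from all 6 lists of the series on 1 strand with gaps of up to 10000 nt, so that 1 locus may hold several close genes and a long gene may fall into several loci. Of 1050 loci with enough cDNAs to compare (at least 50 in both lists together and 10 in each), 218 (20.8%) were called chromatin-higher and 399 (38%) cytoplasm-higher, a call being made when the whole interval of the ratio lay past 2-fold. A further 1676 loci with at least 50 cDNAs were listed in chromatin alone, and 6 in cytoplasm alone. Chromatin was the deeper list, and with it thinned to the cytoplasm total 312 loci of that kind were left (an alternative added after seeing the data). Thinning draws cDNAs from positions already listed, so it does not bring the chromatin threshold to that of the shallower list. The chromatin-higher loci held 25.1% of the chromatin and 3.84% of the cytoplasm cDNAs. The cytoplasm-higher loci held 15.4% and 70.3%. The loci listed in chromatin alone held 24.3% of the chromatin cDNAs. The balance between the directions moved with the settings. It was 209 to 161 with chromatin thinned, 218 to 143 with at least 200 cDNAs per locus, 90 to 194 with positions of at least 3 cDNAs, 121 to 457 with loci joined at 1000 nt, 50 to 317 with positions counted in place of cDNAs, and 127 to 497 with the mitochondrial genome and the 10 highest loci left out of the totals, which lowers every log2 ratio by 0.78.

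**Figure D1:**
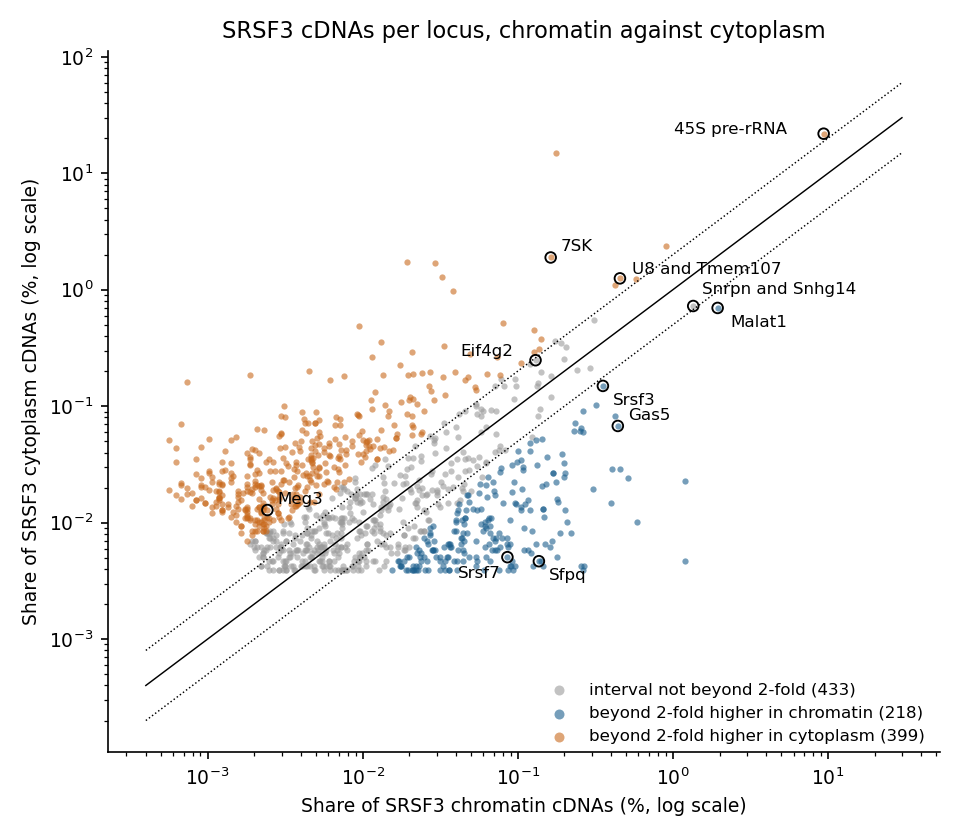
Share of the SRSF3 cDNAs in chromatin (x axis, %, log scale) and in cytoplasm (y axis, %, log scale) for the 1050 loci compared, 1 point per locus, with equal shares as the solid line, 2-fold differences as dotted lines, and named loci ringed. The 218 chromatin-higher loci (blue) lie below the lines and the 399 cytoplasm-higher loci (orange) above them, and the 45S locus stands at the upper right with 9.38% and 21.9%.

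The loci of the 2 directions differed in span. In the chromatin-higher loci, chromatin positions covered a median of 35.7 kb with 478.5 positions in 60.5 separate clusters (a cluster joins positions at gaps of up to 30 nt). Cytoplasmic positions in those same loci covered a median of 8.29 kb with 14 positions in 3 clusters. Of the 19076 chromatin clusters in these loci, 659 (3.45%) also held a cytoplasmic position, close to the 3.22% of all chromatin clusters. In the cytoplasm-higher loci the chromatin positions covered a median of 0.334 kb and the cytoplasmic positions 0.161 kb, and the tallest cluster held a median of 87.4% of the locus in chromatin and 96.5% in cytoplasm. There 779 of 1834 chromatin clusters (42.5%) were also listed in cytoplasm. Loci called by their cDNAs hold few positions of the lower fraction by that choice, so these cluster shares are a description and not a further difference. With the chromatin list thinned to the cytoplasm total, the chromatin-higher loci covered a median of 32.3 kb, with 122 positions, and the cytoplasm-higher loci 0.150 kb, with 7. The ratio of the 2 median chromatin spans was 107 as reported and between 18.6 and 103 under the alternatives, lowest with at least 200 cDNAs per locus.

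The ratio of the shares was set out by the span of the locus. The span is not independent of chromatin binding, since the deepest list joins most positions: at the longest loci named below the chromatin positions alone cover the whole span (188067 of 188067 nt and 310419 of 310419 nt), so the shares by span are a description. Loci under 200 nt, the size of small RNAs and isolated peaks, held 4.02% of the chromatin cDNAs (3.99 to 4.05) and 19.7% of the cytoplasm cDNAs (19.5 to 19.8), 4.90-fold more in cytoplasm. Loci of 200 nt to 1 kb held 4.34% and 10.4%, 2.39-fold more in cytoplasm, or 1.42-fold with positions of at least 3 cDNAs and 4.01-fold with the mitochondrial genome and the 10 highest loci left out. Loci of 1 to 10 kb held 23.4% and 35.6%, of which the 45S locus described below made up 9.38% and 21.9%, and with positions of at least 3 cDNAs the shares of this span were alike, at 38.6% and 38.4%. Loci of 10 to 100 kb held 53.0% and 17.3%, 3.07-fold more in chromatin, or 1.81-fold with the mitochondrial genome and the 10 highest loci left out. Loci of 100 kb or more held 15.1% and 0.378%, 40.0-fold more in chromatin (37.6 to 42.6), or 82.9-fold and 23.3-fold under those 2 settings. Of the 33 longest loci that were compared, 29 were beyond 2-fold higher in chromatin and 0 in cytoplasm. Among all loci compared the shares in these directions were 20.8% and 38%. Of the 206 compared loci under 200 nt, 145 were higher in cytoplasm and 1 in chromatin.

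**Figure D2:**
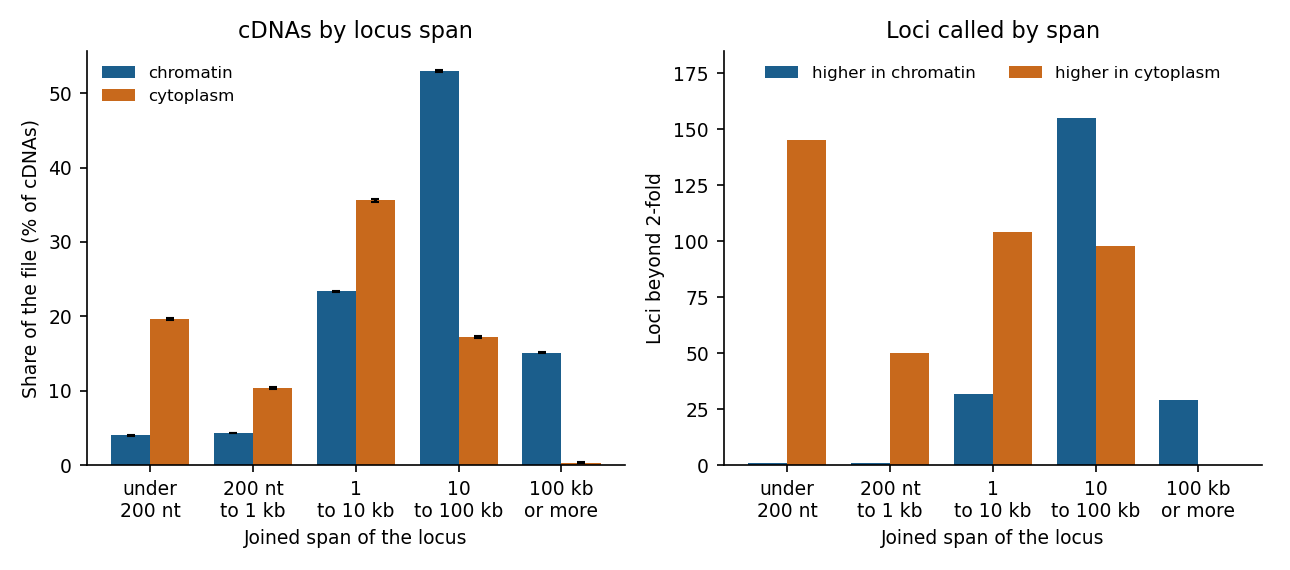
Left, share of each list (% of cDNAs) in nuclear loci of 5 span classes, with exact 95% intervals for counting error; right, number of loci beyond 2-fold in each direction. Chromatin (blue) holds 4.02% in loci under 200 nt and 53.0% at 10 to 100 kb, and cytoplasm (orange) holds 19.7% and 17.3% there and 0.378% at 100 kb or more.

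The 2 highest loci of the chromatin list, 45S and Malat1, are described further on. Of the 10 highest, 5 spanned 84590 nt or more, with few cytoplasm cDNAs. The plus-strand locus chr1:11056686-11244752, of 188067 nt, held 21236 cDNAs in chromatin, spread over 12308 positions, and 12 cDNAs at 10 positions in cytoplasm, 257-fold more in share (147 to 498). The minus-strand locus chr13:28679218-28989636, of 310419 nt, held 21145 and 59 cDNAs, a 52.1-fold difference (40.4 to 68.5). The minus-strand locus chr17:84602301-84846192, of 243892 nt, held 19018 and 8 cDNAs, too few in cytoplasm for a ratio. Each of the 3 held over 1% of all chromatin cDNAs, with fewer cDNAs per position than the average of the list, so they stood out by the number of positions and not by tall peaks. The other 2 long loci were chr2:55288348-55425530 on the plus strand, with 10405 cDNAs over 5855 positions against 26 over 22, 58.2-fold (39.7 to 89.1), and chr4:142717443-142802032 on the minus strand, with 9133 over 4376 against 62 over 48, 21.4-fold (16.7 to 27.95).

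Ratios were ranked only among loci with at least 10 cDNAs in each list. This leaves out chr17:84602301-84846192, with 1.08% of the chromatin and 0.00311% of the cytoplasm cDNAs. The chromatin-higher loci as a class had a median joined span of 37.9 kb. The 8 highest ratios lay between 34.2-fold and 257-fold, and 7 of the 8 loci spanned more than 30 kb. The remaining locus among them, chr3:121541418-121550398 on the minus strand, spanned 8981 nt and held 2585 cDNAs against 11. Of the loci listed in chromatin alone, the highest was chr6:101156885-101327658 on the minus strand, with 5876 cDNAs over 3742 positions in 170774 nt. The next 4 held between 4296 and 5707 cDNAs over spans of 64268 to 327458 nt. A locus missing from the cytoplasm list is not shown to be unbound, since the list holds only positions that passed a threshold. These loci carry coordinates only, because no annotation of build mm9 was used here.

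The loci named from here on were identified from general knowledge of the mouse map and were not matched to an annotation of build mm9. Of their 12 names, 11 lie on the same chromosome in the gene table of a later build. The exception is the 45S precursor, which that gene table does not hold, so its name rests on general knowledge alone. The names were chosen with results of these data known. The highest share in both lists was at the 45S locus, chr17:39979938-39985047 on the plus strand, taken here for a copy of the ribosomal RNA precursor. It held 165908 cDNAs in chromatin, 9.38% (9.34 to 9.42), and 56237 in cytoplasm, 21.9% (21.7 to 22.0), a 2.33-fold higher share in cytoplasm. That fold hides opposite differences along the 5110 nt. In 5 equal parts from the 5′ end, the first held 28.3% of the locus's chromatin cDNAs and 7.48% of its cytoplasm cDNAs. The second held 18.7% and 1.53%, and the third 17.6% and 0.594%. The fourth held 12.5% and 22.8%, and the last 22.8% and 67.6%. As a share of the whole list, the third part was 12.7-fold higher in chromatin (11.4 to 14.2) and the last 6.90-fold higher in cytoplasm (6.81 to 7.004). Over the first 3 parts, a grouping made after seeing the values, chromatin was 2.89-fold higher (2.81 to 2.97), and over the last 2 parts cytoplasm was 5.96-fold higher (5.89 to 6.03). The tallest nucleotides differed too. Position 39982254 had 1343 cDNAs in chromatin, the tallest of that list, and was not listed in cytoplasm. Position 39984604 had 1540 cDNAs in cytoplasm, the tallest of that list, and 281 in chromatin. Among clusters with a ratio, the highest chromatin ratio also lay here, at chr17:39982850-39983021, with 8003 against 64 cDNAs, 18.2-fold (14.2 to 23.6). With positions of at least 3 cDNAs the locus as a whole no longer passed 2-fold (log2 ratio -0.49).

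Malat1, a long noncoding RNA kept in nuclear speckles where splicing factors gather, behaved differently from the 45S locus. At chr19:5794731-5803434 on the minus strand, 34390 cDNAs were listed in chromatin and 1794 in cytoplasm, 1.94% and 0.698%, a 2.79-fold higher share in chromatin (2.66 to 2.92). The profile along the RNA was similar in the fractions: the middle part held 38.1% of the locus in chromatin and 30.2% in cytoplasm, and the part after it 41.7% and 44.8%. The 5′ part stood apart, with 996 cDNAs in chromatin and 1 in cytoplasm. With positions counted in place of cDNAs the direction turned (log2 ratio -2.02), with 2427 of the 870234 chromatin positions and 663 of the 58686 cytoplasm positions. With the mitochondrial genome and the 10 highest loci left out, the ratio fell below the call (log2 0.70).

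**Figure D3:**
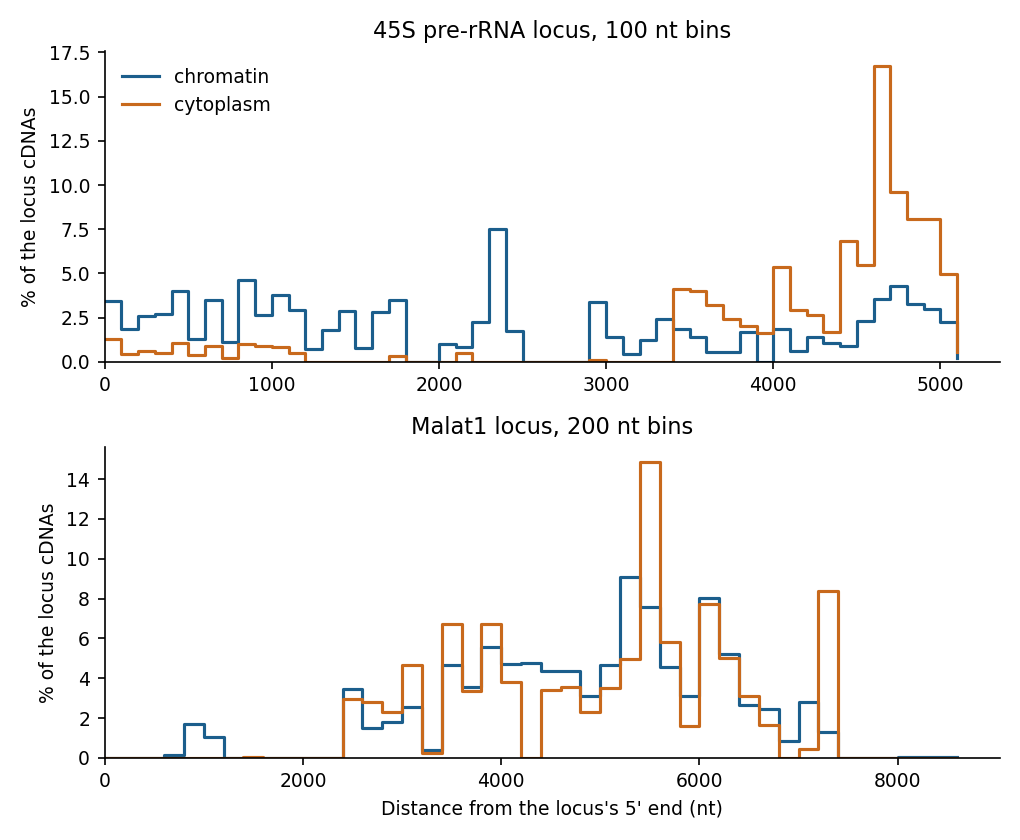
Share of the locus's own SRSF3 cDNAs (y axis, %) by distance from the 5′ end of the locus (x axis, nt), at the 45S locus in 100 nt bins and at Malat1 in 200 nt bins, chromatin in blue and cytoplasm in orange. At the 45S locus 67.6% of the cytoplasm cDNAs lie in the last of 5 equal parts, against 22.8% of the chromatin cDNAs, while the Malat1 profiles overlap over most of the RNA.

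Other noncoding RNAs and units that hold them split between the fractions. Neat1, the RNA on which paraspeckles are built, had 54 cDNAs in chromatin and was not listed in cytoplasm. Gas5, a transcript spliced to release snoRNAs from its introns, had 7813 cDNAs in chromatin and 174 in cytoplasm, 0.442% and 0.0677%, 6.53-fold higher in chromatin (5.62 to 7.63). In chromatin 59.1% of the Gas5 cDNAs lay in the middle one of 5 equal parts and 35.7% in the first, and in cytoplasm 27.0% and 73.0%. The Gas5 direction turned with positions counted (log2 ratio -0.97). The imprinted unit of Snrpn and Snhg14, which carries clusters of snoRNAs beside the coding sequence of a splicing protein, had 23933 and 1864 cDNAs, 1.35% and 0.725%. Its 1.87-fold higher chromatin share (1.78 to 1.96) did not pass the 2-fold rule, although the 3 parts nearest the 5′ end were 4.10-fold higher in chromatin (3.67 to 4.59) and the other 2 were 1.38-fold higher (1.31 to 1.46). With positions of at least 3 cDNAs this unit passed the rule in chromatin (log2 ratio 2.86), and with positions counted it passed in cytoplasm (-1.29). Meg3, an imprinted long noncoding RNA, had few cDNAs, 43 and 33, and a share 5.28-fold higher in cytoplasm (3.25 to 8.51), a direction that was lost with positions of at least 3 cDNAs (log2 ratio 0.35, interval -1.46 to 2.77).

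7SK and U8, RNAs that work in the nucleus, held larger shares of the cytoplasm list than of the chromatin list. In the SRSF3 nucleoplasm list 7SK held 2.07%, more than in either fraction, and the U8 locus 0.725%, between them. 7SK, which holds the elongation factor P-TEFb inactive in the nucleus, had 2884 cDNAs in chromatin and 4864 in cytoplasm, 0.163% and 1.89%, 11.6-fold higher in cytoplasm (11.1 to 12.2). Of 5 equal parts of this 126 nt locus, the first went the other way, with 344 cDNAs in chromatin and 0 in cytoplasm. From the second part on, the cytoplasm excess grew toward the 3′ end of the locus, from 4.87-fold to 18.2-fold in the last. The locus of U8, a snoRNA needed for processing of ribosomal RNA, together with the neighbouring gene Tmem107, had 8062 and 3219 cDNAs, 0.456% and 1.25%, 2.75-fold higher in cytoplasm (2.64 to 2.86). Its binding was 1 peak of 109 nt, chr11:68886924-68887032, with 8046 of the chromatin and 3211 of the cytoplasm cDNAs, and the nucleotide 68886932 within it had 924 and 702. Whether nuclear RNA reached the cytoplasmic fraction was not tested, as the lists hold no measure of RNA per fraction.

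Beside Snrpn and Tmem107, 4 named loci are protein-coding genes, 2 of them genes of SR proteins, which limit their own output by splicing in an exon that brings a premature stop. Srsf3, the gene of the bound protein, had 6261 cDNAs in chromatin and 384 in cytoplasm, 0.354% and 0.149%, 2.37-fold higher in chromatin (2.14 to 2.63). The middle part of the locus held 71.2% of its chromatin and 87.5% of its cytoplasm cDNAs, and the part after it 799 cDNAs in chromatin and 0 in cytoplasm. The Srsf3 call was lost with chromatin thinned (log2 ratio 1.16, interval 0.98 to 1.33) and with the highest loci left out (0.46), and the direction turned with positions counted (-0.98). Srsf7, its paralogue, had 1517 cDNAs against 13, 16.96-fold higher in chromatin (9.89 to 31.9). Sfpq, a splicing and paraspeckle protein, had 2421 cDNAs over 1166 positions against 12 over 9, 29.3-fold higher in chromatin (16.8 to 56.8). Eif4g2, a translation initiation factor, went the other way with 2303 and 638 cDNAs, 0.130% and 0.248%, a 1.91-fold higher cytoplasm share (1.74 to 2.08) that did not pass the rule, though it did with the highest loci left out (log2 ratio -1.71) and with positions counted (-1.99). Its binding lay at the same place: 88.7% of its chromatin and 89.8% of its cytoplasm cDNAs lay in the middle part.

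The loci most strongly shifted to cytoplasm were mitochondrial or very short. Outside the mitochondrial genome, the lowest ratio belonged to chr7:111785248-111785252, 5 nt of the minus strand, with 13 cDNAs in chromatin and 415 in cytoplasm, 220-fold higher in cytoplasm (127 to 416). Next were chr9:66378138-66378155 on the minus strand, with 12 and 180 cDNAs (103-fold, 57.6 to 203), and chrX:50940725-50940729 on the minus strand, with 33 and 480 (100.1-fold, 70.3 to 147). Each of the 3 is a single peak of 2 to 5 listed positions in either fraction. The locus chr8:124405070-124412324 on the minus strand, of 7255 nt, was different. It held 132 cytoplasm cDNAs over 74 positions that covered 3926 nt, and 10 chromatin cDNAs. Among the 10 highest loci of the cytoplasm list, chr6:47731614-47731749 on the plus strand, of 136 nt, had 516 and 4326 cDNAs, 57.7-fold higher in cytoplasm (52.6 to 63.3). A minus-strand locus of 177 nt, chr18:73692985-73693161, had 572 and 3319 cDNAs, 39.9-fold higher in cytoplasm (36.5 to 43.7), and its tallest nucleotide, with 1199 cytoplasm cDNAs, was not listed in chromatin.

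Another 3 loci, of 359 to 454 nt, stood among the 10 highest of cytoplasm with ratios close to that of the 45S locus. They were chr11:108872978-108873431 on the minus strand (15931 and 6073 cDNAs, 2.62-fold higher in cytoplasm), chr5:147072566-147072924 on the plus strand (10267 and 3195, 2.14-fold) and chr3:5860367-5860808 on the plus strand (7499 and 2826, 2.59-fold). With positions of at least 3 cDNAs, none of the 3 passed 2-fold, nor did the U8 locus, at log2 ratios between -0.35 and -0.75. The 10 highest loci of the lists had 3 loci in common. All 10 of the cytoplasm list were beyond 2-fold higher in cytoplasm, and of the 10 of the chromatin list 5 were higher in chromatin and 3 in cytoplasm. Of the 6 loci listed in cytoplasm alone, the highest, chrX:97624187-97624189 on the minus strand, had 156 cDNAs in 3 nt.

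Mitochondrial RNA had a far higher share in cytoplasm. Its 37 genes, 2 ribosomal RNAs, 22 tRNAs and 13 mRNAs, are transcribed as long precursors from both strands inside the organelle. They were located here with the gene table of a later mouse build, on the general knowledge that the mitochondrial sequence is shared by the builds; between 97.8% and 99.4% of the cDNAs fell in genes of their own strand and 0% in genes of the other strand only. SRSF3 had 3472 mitochondrial cDNAs in chromatin, 0.196%, and 42945 in cytoplasm, 16.7%, an 85.1-fold difference (82.2 to 88.1), or 56.0-fold with positions of at least 3 cDNAs. The ribosomal RNAs held 0.128% and 8.12%, 63.2-fold higher in cytoplasm (60.5 to 66.0). The tRNAs held 0.0642% and 4.92%, 76.7-fold (72.2 to 81.6). The mRNAs held 40 cDNAs at 32 positions in chromatin and 8964 at 1911 positions in cytoplasm, 1542-fold higher (1131 to 2160). That fold rests on positions that passed a threshold in each list. The mRNA positions held a mean of 4.69 cDNAs in cytoplasm and those of the ribosomal RNAs 36.1, so thin mRNA binding in chromatin, with 3472 mitochondrial cDNAs in all, could go unlisted, and how far this enlarges the fold was not tested. Mitochondrial mRNA thus made up 1.15% of the mitochondrial cDNAs of chromatin and 20.9% of those of cytoplasm, while the ribosomal RNAs made up 65.4% and 48.6%.

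Gene by gene, 22 mitochondrial genes were listed in cytoplasm and 17 in chromatin. The genes absent from chromatin were all mRNAs: ND1 (1017 cytoplasm cDNAs), ND2 (1393), ND5 (1925), ND6 (268) and CYTB (1021). COX1, a core subunit of cytochrome c oxidase, had 11 cDNAs in chromatin and 2425 in cytoplasm, and ND4, a complex I subunit, 29 and 915. The 12S ribosomal RNA, mt-Rnr1, had 677 and 7714 cDNAs, 78.4-fold higher in cytoplasm (72.5 to 84.9), and the 16S, mt-Rnr2, had 1594 and 13149, 56.75-fold (53.9 to 59.8). Within the 12S RNA, 62 nt at chrM:323-384 gave the lowest ratio of any cluster, 21 against 2571 cDNAs, 842-fold (550 to 1363). Among the 12 tRNAs with a ratio, the folds ran from 29.8 at TrnF and 30.8 at TrnV, which flank the 12S RNA, to 167 at TrnL1 (137 to 206), which follows the 16S RNA. The same 13 tRNAs were listed in both fractions. The other 15 genes, 6 mRNAs and 9 tRNAs, among them COX2, COX3 and ATP6, had no position in any of the 6 lists of the series. The 6 mRNAs follow one another in a stretch where both SRSF3 lists were empty. Plus-strand bins starting from 6500 to 10000 nt held 0 cDNAs, after 955 cytoplasm cDNAs in the bin starting at 6000 nt. Why this stretch was empty was not tested, and absence from the lists does not show that these RNAs were unbound.

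**Figure D4:**
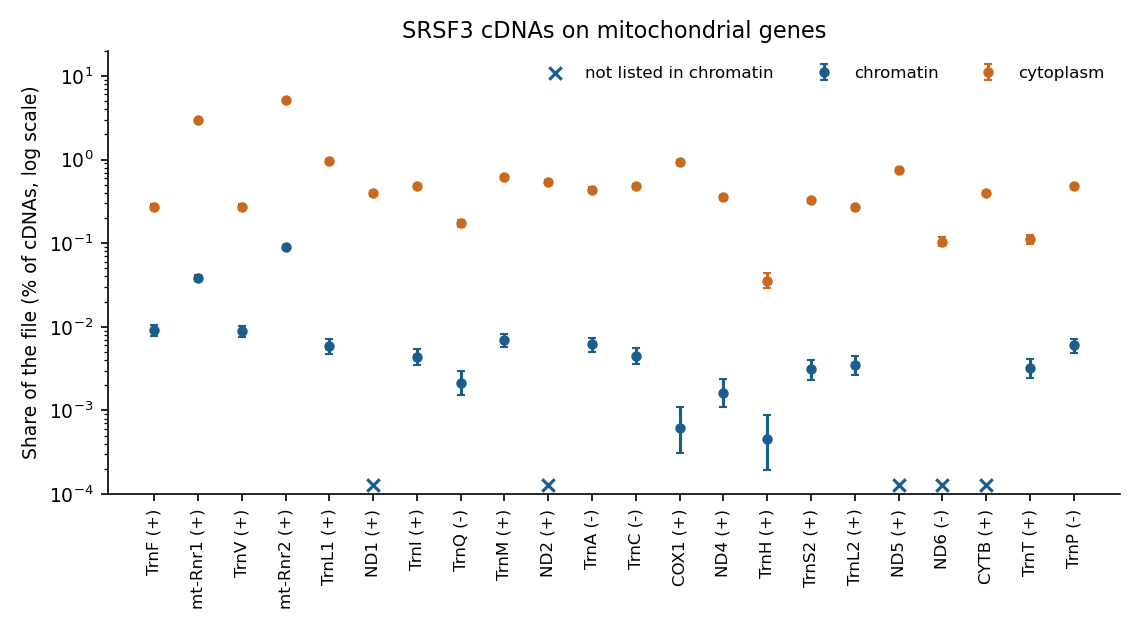
Share of each list (y axis, % of cDNAs, log scale) on the 22 mitochondrial genes listed in cytoplasm, ordered along the genome with the strand in brackets, chromatin in blue and cytoplasm in orange, bars showing exact 95% intervals for counting error. Every gene lies higher in cytoplasm, and crosses mark the 5 mRNAs with no chromatin position.

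The question of the same sites was asked at 2 scales, clusters and nucleotides. Joining the chromatin and cytoplasm positions gave 149023 clusters in chromatin and 11627 in cytoplasm, and 4796 held positions of both. These were 41.2% of the cytoplasm clusters and 3.22% of the chromatin clusters. They were the heavy ones: they held 84.6% of the cytoplasm cDNAs and 30.8% of the chromatin cDNAs, or 77.4% and 21.3% outside the mitochondrial genome and the 10 highest loci. Clusters of both fractions were a median of 31 nt wide, those of chromatin alone 13 nt, and those of cytoplasm alone 5 nt. A cluster joins the positions of both lists, so clusters of both can be wider by that construction alone. Of 889 clusters compared, 83 (9.34%) were beyond 2-fold higher in chromatin and 478 (53.8%) in cytoplasm. The second count fell to 218 when positions under 3 cDNAs were dropped and to 159 with chromatin thinned, and the first to 19 when the mitochondrial genome and the 10 highest loci were dropped.

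Outside the mitochondrial genome and the 10 highest loci, taller clusters of one fraction were more often listed in the other. Over all clusters this held in chromatin, but in cytoplasm the share was 89.9% at 50 or more and under 200 cDNAs and 87.8% at 200 or more. Outside the mitochondrial genome and the 10 highest loci, 0.964% of the chromatin clusters with 1 to 2 cDNAs were also in cytoplasm. The share was 2.29% at 3 to 9 cDNAs, 5.05% at 10 to 49, 26.9% at 50 or more and under 200, and 71.6% at 200 or more. In the other direction, 23.9% of the smallest cytoplasm clusters were also in chromatin, 94.8% of those with 50 or more and under 200 cDNAs, and 73 of 73 with 200 or more. Even so, 120 of the 422 chromatin clusters of that height had no position in the cytoplasm list. At equal shares, a chromatin cluster of 200 cDNAs corresponds to 29.1 cDNAs in the shallower cytoplasm list, and a cluster of 1 to 2 to less than 1, so absence of the small clusters was not detectable at this depth.

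**Figure D5:**
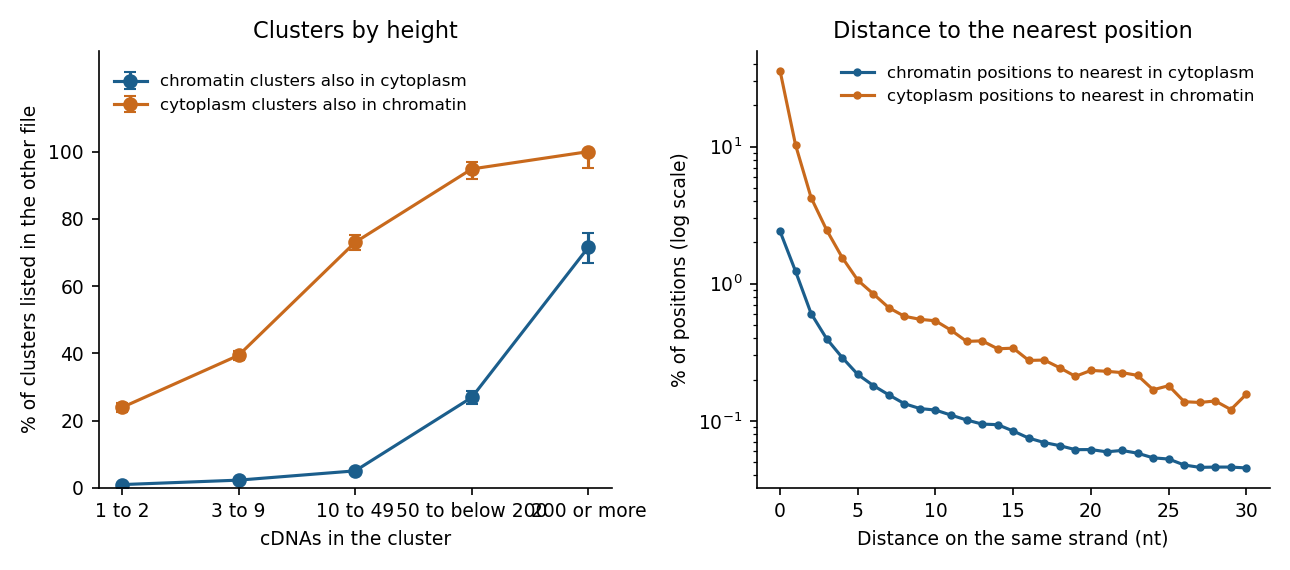
Left, share of clusters also listed in the other fraction (y axis, %) by the number of cDNAs in the cluster, outside the mitochondrial genome and the 10 highest loci, with exact 95% binomial intervals over clusters, which are not replicates. Right, share of positions (y axis, %, log scale) by distance to the nearest position of the other list on the same strand (x axis, nt). Chromatin clusters (blue) climb from 0.964% to 71.6%, cytoplasm clusters (orange) from 23.9% to 100%, and both distance curves are highest at 0 nt, at 2.41% and 35.8%.

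At single nucleotides, 35.8% of the cytoplasm positions were also listed in chromatin at that same nucleotide and 55.4% had a chromatin position within 5 nt. By cDNAs the same nucleotides held 68.6% of the cytoplasm list and 19.3% of the chromatin list. The share within 5 nt was 95.2% in the 10 highest loci, 24.3% in the mitochondrial genome and 53.2% elsewhere. It was 39.4% with chromatin thinned to the cytoplasm total. In 305 clusters with at least 50 cDNAs in each fraction, the tallest nucleotide was the same in 140 (45.9%), lay within 2 nt in 162 and was more than 10 nt away in 98. Of the 5 tallest nucleotides of chromatin, the one outside the 45S and U8 loci was position 57391793 on the minus strand of chr16, with 551 cDNAs in chromatin and 452 in cytoplasm.

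Within loci, cytoplasmic binding was more concentrated. Of 402 loci of at least 5 kb with at least 20 cDNAs in each list, 225 (56.0%) had over 80% of their cytoplasm cDNAs in 1 of 5 equal parts, and 86 (21.4%) did so in chromatin. With chromatin thinned the values were 49.8% and 14.7% of 265 loci. Thinning draws on positions that passed in the deeper list, so it cannot tell how far depth made this difference. Chromatin positions occurred in all 5 parts in 191 loci (47.5%) and cytoplasm positions in 14 (3.48%). The parts are cut from joined spans, to which the deeper chromatin list gives most positions, so these counts are a description. They were not repeated with chromatin thinned. Loci are not replicates, so the next share carries no interval. The cytoplasm cDNAs lay on average further toward the 3′ end in 239 loci (59.5%), and the last part held a mean of 36.7% of a locus's cytoplasm cDNAs and 23.0% of its chromatin cDNAs. That direction was not stable, as the share was 41.1% with loci joined at 1000 nt.

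Set beside the other lists of the series, the chromatin-higher SRSF3 loci held 12.9% of the SRSF3 nucleoplasm cDNAs, between the 25.1% of chromatin and the 3.84% of cytoplasm, and the cytoplasm-higher loci held 47.1%. In SRSF7, whose track names differ in how regions were treated in peak calling, the chromatin-higher loci held 25.5% of the chromatin and 10.5% of the cytoplasm cDNAs, and the cytoplasm-higher loci 34.7% and 46.2%. Summed over loci, both differences thus had the same direction in SRSF7. Among the cytoplasm-higher loci, the plus-strand mitochondrial locus held 0.285% of the SRSF7 chromatin and 8.07% of the SRSF7 cytoplasm cDNAs. The 45S locus went the other way in SRSF7, with 19.7% and 17.3%. In SRSF7 nucleoplasm the chromatin-higher loci held 30.4% and the cytoplasm-higher loci 21.3%, neither of them between the chromatin and cytoplasm values. The loci were chosen by their SRSF3 ratios, so the sizes in the 2 proteins cannot be set against each other, and the difference between the proteins was not tested. For single loci the log2 ratio of chromatin over cytoplasm was 1.48 in SRSF3 and 1.27 in SRSF7 at Malat1, 2.71 and 3.61 at Gas5, and 8.01 and 2.62 at chr1:11056686-11244752. It was -3.54 and -0.08 at 7SK, -1.22 and 0.19 at the 45S locus, and 4.87 and -0.83 at Sfpq.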

How the data were processed

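Fractionation iCLIP of SRSF3-GFP was analysed from 1 pooled list of positions per fraction. Every deposited entry covers 1 nt and gives a signed cDNA count, whose sign was taken for the strand. Peaks were called by the authors at a false discovery rate under 0.05, from 100 permutations in a neighbourhood of 15 nt and for each region on its own, per the file headers. The build is mm9, per the submitters' processing notes, and coordinates are 1-based. The sources used here name no aligner and no way of removing duplicates. Barcodes hold random nucleotides around a fixed part, per the labels, and cytoplasm replicates 1 and 4 carry the same one, nnnTTGTnn (fixed part in capitals). The values are counts in peaks, and a deeper list passes more weak positions.

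Shares were taken of each list's total, 1768665 cDNAs in chromatin and 257089 in cytoplasm, with Clopper-Pearson intervals (exact, 95%); ratios carry conditional exact binomial intervals. No test between replicates was possible, and no bound was set for absent loci because the lists are thresholded. The script was tested on simulated counts. Named loci are the 10 highest shares per list, the 8 highest and lowest ratios, the highest loci of 1 list alone, the extreme clusters, and 12 loci of general knowledge. Members, lists and names were chosen with earlier results of these data known. Alternatives were a minimum of 3 cDNAs, thinning, other gaps, distances, folds and minimums, positions in place of cDNAs, and other totals. The software was Python 3.11.15 with scipy 1.17.1, pandas 2.3.3, numpy 2.4.6 and, for plots, matplotlib 3.10.9. A genome sequence of build mm9 was not used here, so no bound sequences are shown.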

Additional observations from a re-analysis of the deposited data

Results flagged for a closer look

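At 2 of the named loci, of which 32 had a ratio in SRSF3, the proteins lay beyond 2-fold in opposite directions between chromatin and cytoplasm. Many of these loci were named for their SRSF3 shares or ratios. At the locus of U8 and Tmem107 the log2 ratio of chromatin over cytoplasm was -1.46 for SRSF3 (8062 and 3219 cDNAs) and 4.33 for SRSF7 (4971 and 365 cDNAs). At the 5 nt of chr7:111785248-111785252 on the minus strand it was -7.78 for SRSF3 (13 and 415 cDNAs) and 1.69 for SRSF7 (59 and 27 cDNAs). There the SRSF7 interval, 1.01 to 2.41, only just passed 2-fold, and the locus was named for its low SRSF3 ratio. Each value comes from 1 pooled list per group, and the difference between the proteins was not tested.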

How the results depend on the processing

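No paired analysis was possible because the replicates were pooled before deposit, and for that reason no replicate could be left out. Chromatin-higher loci numbered 218, and 90 with positions of at least 3 cDNAs, 121 with loci joined at 1000 nt, 50 with positions counted, 127 with the mitochondrial genome and 10 highest loci left out, and 112 at 4-fold. Cytoplasm-higher loci numbered 399, and 194 with at least 3 cDNAs, 161 with chromatin thinned, 143 with at least 200 cDNAs and 246 at 4-fold. Chromatin-higher clusters numbered 83, and 19 without the highest loci and 19 at 4-fold. Cytoplasm-higher clusters numbered 478, and 218 with at least 3 cDNAs, 159 thinned and 311 at 4-fold. Clusters of both numbered 4796, and 1721 with at least 3 cDNAs. They held 84.6% of cytoplasm cDNAs, and with at least 3 cDNAs, thinned, and joined at 10 and 100 nt 88.0%, 79.99%, 82.4% and 88.2%. For chromatin cDNAs these were 30.8%, and 50.9%, 29.9%, 28.6% and 36.1%. Shared cytoplasm positions were 55.4%, and with at least 3 cDNAs, thinned, at 0 nt and within 20 nt 64.3%, 39.4%, 35.8% and 61.7%. For chromatin positions these were 5.16%, and 11.99%, 9.73%, 2.41% and 6.69%. Loci with cytoplasm further 3′ were 59.5%, and 53.7% with at least 3 cDNAs and 41.1% joined at 1000 nt. The span ratio was 107, and 63.1 with at least 3 cDNAs, 38.6 thinned, 49.8 joined at 1000 nt and 18.6 with at least 200 cDNAs. Counting positions reversed Malat1 (-2.02), Gas5 (-0.97), Srsf3 (-0.98) and the unit of Snrpn and Snhg14 (-1.29). With at least 3 cDNAs the sign turned at Meg3 (0.35, interval -1.46 to 2.77) and for loci of 1 to 10 kb (0.0094, interval -0.0019 to 0.0207), where both intervals include 0. Of 32 named loci with a ratio, 19 of 26 kept their call with at least 3 cDNAs, 30 of 31 with chromatin thinned, 26 of 32 with positions counted and 29 of 32 without the highest loci. The causes were not tested.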
